A study of Mus musculus with 9 samples.

Results

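The heat shock chaperones described here are 10 mouse genes, taken by symbol from a table of 54532 genes: Hspa1a, Hspa1b, Hspa8, Dnajb1, Hsph1, Hsp90aa1, Hsp90ab1, Hspd1, Hspe1 and Hspb1. All 10 were listed, and 7 of them passed a filter of 0.2 FPKM on the mean of all libraries, which 16123 genes of the table passed. FPKM are fragments scaled to gene length in kilobases and to a divisor of the library, so that levels can be set side by side between genes. The divisor was not exactly the reads counted on genes: the same share of those reads stood at an FPKM 8.29% higher on average in OGD + A-485 than in control, and 3.5% higher in OGD. Hspa1a, Hspa1b and Hspb1 did not pass the filter and are described by their reads.

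RNA was sequenced from 9 libraries of BV2 cells, an immortalized line of mouse microglia, the resident immune cells of the brain. The 3 control libraries came from cells in complete medium with 10% serum and normal oxygen. The 3 OGD libraries came from cells under oxygen glucose deprivation (OGD), where the medium was low in glucose, the serum was cut to 4% and the chamber was hypoxic. The 3 OGD + A-485 libraries came from OGD cells that were also given A-485, an inhibitor of the histone acetyltransferase P300. In the A-485 experiments before the sequencing OGD lasted 24 h and the dose was 50 µM, and the labels of the libraries name no time or dose. Serum, glucose and oxygen differed together between control and OGD and cannot be told apart, and no library received A-485 without OGD. The labels do not say that the libraries of a group came from separate cultures, so p-values measure the spread between these libraries, which may be technical.

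Each library had 12593250 to 16091038 reads on genes, and a gene 1 kb long had 0.0618 to 0.0786 FPKM for each read. The 10 most abundant genes took 5.38 to 6.37% of the reads and mitochondrial genes 1.14 to 2.20%. Of 10 microglial markers, 9 had a mean of at least 1 FPKM over all 9 libraries (P2ry12 did not). None of 20 markers of neurons, astrocytes, oligodendrocytes, endothelial cells, fibroblasts and T cells reached that mean. Aif1 reached it only through the A-485 libraries, where it averaged 2.57 FPKM. Its control mean was 0.613 FPKM and its OGD mean 0.889. The oligodendrocyte marker Mbp averaged 1.04 FPKM in control and 1.10 under OGD, but 0.737 when A-485 was added. The summed level of the microglial markers ran from 378 to 387 FPKM in control, from 438 to 467 with OGD and from 769 to 812 with A-485 as well, and the part of this shift in the results was not tested. The summed level of the 20 other markers ran from 1.97 to 2.35 FPKM in control libraries, from 3.21 to 4.13 in those with OGD and from 2.17 to 2.60 in those with A-485. Of 8 genes known to rise in hypoxia, 8 rose with OGD, with a median log2 fold change of 1.28.

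Chaperones bind unfolded or partly folded proteins and help them reach or regain their shape. HSP70 proteins work in a cycle driven by ATP, in which J-domain proteins deliver the client and HSP110 proteins and other exchange factors release the nucleotide, and HSP90 takes over clients such as kinases and steroid receptors late in folding. In the heat shock response the transcription factor HSF1, held inactive by chaperones in unstressed cells, binds repeats of the unit nGAAn called heat shock elements and raises the inducible chaperone genes.

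The upstream sequences are shown because several of these genes are textbook targets of HSF1, and because Hspd1 and Hspe1 are known to share a promoter that is read in both directions. RefSeq promoter entries (GRCm38.p6) were found for 7 members, with no entry for Hspa8, Hsp90aa1 and Hsp90ab1. The 250 bases before each start were searched on both strands for a pair of inverted units, GAANNTTC or TTCNNGAA, and for 3 such units in turn, GAANNTTCNNGAA or TTCNNGAANNTTC, which contain the pair. A pair was present before the start of 6 of the 7 members, all except Dnajb1, and of 14.5% of 27025 genes. The run of 3 units was present before 2 members and before 0.514% of genes. Windows of 30 bases around each match follow, 5′ to 3′ on the gene's own strand, with the matched units in capitals:
Hspd1, chr1:55088053-55088082, minus strand: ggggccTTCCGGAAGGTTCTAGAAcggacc
Hspe1, chr1:55088053-55088082, plus strand: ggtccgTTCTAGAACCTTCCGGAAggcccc
Hsph1, chr5:149636351-149636380, minus strand: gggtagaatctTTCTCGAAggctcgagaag
Hspb1, chr5:135887791-135887820, plus strand: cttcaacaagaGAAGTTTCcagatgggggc
Hspb1, chr5:135887811-135887840, plus strand: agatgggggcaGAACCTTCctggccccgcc
Hspa1a, chr17:34972242-34972271, minus strand: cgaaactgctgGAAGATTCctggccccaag
Hspa1b, chr17:34959324-34959353, minus strand: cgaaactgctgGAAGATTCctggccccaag

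The first and second windows are the same interval read from its opposite strands, since Hspd1 and Hspe1 lie head to head on chromosome 1. The matched stretch in capitals was 18 bases long, longer than a run of 3 units. It lay 144 to 127 bases before an Hspd1 start and 89 to 72 bases before the Hspe1 start. In the GENCODE annotation it is inside the 5′ untranslated exon of a longer Hspd1 form. The Hsph1 match lay 33 to 26 bases before one annotated start and 54 to 47 before another, with 26 of the 30 bases in an untranslated exon. The windows of Hspb1, Hspa1a and Hspa1b are intergenic. The upstream 250 bases of Hspa1a and Hspa1b, neighbours on chromosome 17 that lie 9952 bases apart, were identical at 247 positions (98.8%). A match of letters is not evidence of binding, and no binding was measured in these libraries.

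The members differed widely in level. Hsp90ab1 was the 9th most abundant of the 54532 genes by mean FPKM, Hsp90aa1 the 32nd, Hspa8 the 33rd, Hspd1 the 61st and Hspe1 the 295th. Hsph1 and Dnajb1 were lower, at ranks 2258 and 3955. The lowest of the 10 were Hspb1 at rank 16411, Hspa1b at 20570 and Hspa1a at 25051. The order from Hsp90ab1 down to Dnajb1 held between neighbours without overlap of their libraries in every group, with one exception at Hsp90aa1 and Hspa8. These were interleaved in control, Hsp90aa1 was above Hspa8 in OGD, and Hspa8 was above Hsp90aa1 in OGD + A-485. Together the 10 genes summed to 3622 ± 15.0 FPKM in control (SD, n = 3), to 3252 ± 66.5 under OGD and to 3657 ± 88.6 when A-485 was added. As a share of the reads on genes they took 1.26 to 1.29% in control. The OGD libraries had 1.08 to 1.11%, and those with A-485 as well 1.17 to 1.19%. By reads OGD + A-485 thus lay below control with no overlap, while by FPKM those groups overlapped.

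**Figure D1:**
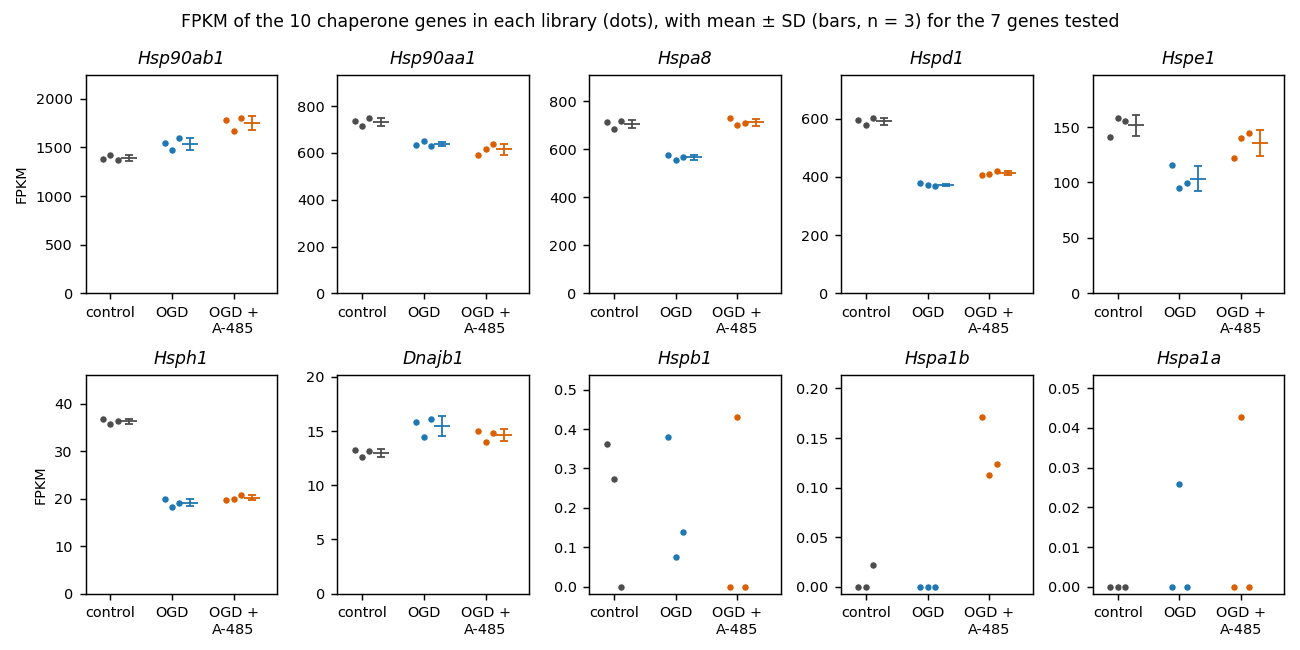
Level of each of the 10 chaperone genes in FPKM (vertical axis, linear, with its own range in each panel) in the 3 libraries of each group (dots), with mean ± SD (bars, n = 3) for the 7 genes that passed the filter. Hsp90ab1 was the highest in every library, and Hspb1, Hspa1b and Hspa1a stayed under 0.5 FPKM in all 9.

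With OGD, 3 of the 7 members tested fell and none rose, by the thresholds of the study (p under 0.01 and a log2 fold change past 0.5 in either direction, here from limma). By the same rule 21.0% of all genes tested were called, 9.81% lower and 11.2% higher. With scaling by library totals, 1866 genes in all were lower and 1588 higher, against 1581 and 1803. The genes that fell were Hsph1, Hspd1 and Hspe1, by 47.2, 36.9 and 31.8%. At an adjusted p under 0.05, 5 members were lower and 1 higher, where 45.3% of all genes passed (22.8% lower and 22.5% higher). The libraries of the groups did not overlap for all 7 members, 5 lower and 2 higher, beside 55.4% of all genes (27.5% and 28.0%). The median log2 fold change of the 7 members was -0.32, against 0.01 over all genes tested. In these bulk samples, fewer cells that express a gene and less RNA of it per cell cannot be told apart.

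Hsph1 (ENSMUSG00000029657, chromosome 5, 149614287 to 149636376), which encodes the HSP110 protein that releases ADP from HSP70, had 36.9, 35.8 and 36.4 FPKM in the control libraries. It had 19.9, 18.3 and 19.2 FPKM in OGD. It had 19.8, 20.0 and 20.8 FPKM in OGD + A-485. Every OGD library, with or without A-485, was well below every control library, while the libraries with and without A-485 overlapped. OGD lowered Hsph1 by a log2 fold change of -0.92 (standard error 0.04, limma, adjusted p = 9.14e-07), and the value was 0.08 for OGD + A-485 against OGD (standard error 0.04, adjusted p = 0.149). It was -0.84 for OGD + A-485 against control (adjusted p = 3.27e-07). The small difference with A-485 changed direction, to -0.11, when the median of the 50 neighbouring genes was removed.

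Hspd1 and Hspe1 encode the mitochondrial chaperonin, HSP60, and its lid, HSP10, which fold proteins imported into the mitochondrial matrix. Hspd1 (ENSMUSG00000025980, chromosome 1, 55077835 to 55088243) had 595, 578 and 601 FPKM in control. It had 378, 371 and 369.7 FPKM in OGD. It had 408, 409.8 and 419 FPKM in OGD + A-485. The 3 groups did not overlap, and the A-485 libraries lay between the other groups, much nearer to OGD. OGD lowered Hspd1 by a log2 fold change of -0.67 (standard error 0.04, limma, adjusted p = 3.48e-06). It was -0.52 in OGD + A-485 against control (adjusted p = 4.85e-06), also called, and -0.87 there under quantile normalization. The difference between OGD + A-485 and OGD was 0.15 (standard error 0.04, adjusted p = 0.0126), under the threshold of size, and -0.11 under quantile normalization. In Hspd1 transcripts 23.4% of stretches of 100 bases were shared with other genes (Hspd1-ps3 and Gm47750), whose reads came to 1.86% of its own.

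Hspe1 (ENSMUSG00000073676, chromosome 1, 55088132 to 55091307) had 141, 158 and 155 FPKM in control. It had 116, 94.9 and 99.6 FPKM in OGD. It had 122, 140.3 and 145 FPKM in OGD + A-485. All OGD libraries were lower than all others, and control and OGD + A-485 overlapped. OGD lowered Hspe1 by a log2 fold change of -0.55 (standard error 0.09, limma, adjusted p = 0.00102), and the value was 0.39 for OGD + A-485 against OGD (adjusted p = 0.00589) and -0.16 for OGD + A-485 against control (adjusted p = 0.167). The last was -0.37 under quantile normalization and -0.27 with library totals. Hspe1 was the least evenly measured of the abundant members: without OGD replicate 2 its change with OGD was -0.49, short of the threshold of size. With the median of its neighbours removed it was -0.42, also short of the threshold. The annotated exons of Hspd1 and Hspe1 overlap on opposite strands over 112 bases, which is 4.24% of the exonic bases of Hspd1 and 7.6% of those of Hspe1, and whether reads were counted by strand is not stated.

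The ratio of Hspd1 to Hspe1, members of the pair that share the matched stretch shown above, was 4.22, 3.66 and 3.87 in control. It was 3.26, 3.91 and 3.71 in OGD and 3.34, 2.92 and 2.89 in OGD + A-485. Control and OGD overlapped, and all OGD + A-485 libraries were below all control libraries. On the log2 scale OGD + A-485 was lower than control by 0.36 (exact permutation test, two-sided, p = 0.1, the smallest that 3 against 3 libraries can give; adjusted over 6 ratio tests 0.15). OGD differed from control by -0.11 (exact permutation test, p = 0.5) and OGD + A-485 from OGD by -0.25 (exact permutation test, p = 0.2).

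Among the HSP70 members, the level rested almost wholly on Hspa8 (ENSMUSG00000015656, chromosome 9, 40800984 to 40810087), which encodes HSC70, the HSP70 that cells make at all times. Hspa8 had 714, 685 and 717 FPKM in control. It had 577, 555 and 567 FPKM in OGD and 729, 700.0 and 709 FPKM in OGD + A-485. All OGD libraries were below all libraries of the other groups, which overlapped with each other. On the log2 scale Hspa8 differed by -0.32 between OGD and control (standard error 0.05, limma, adjusted p = 0.000464) and by 0.33 for OGD + A-485 against OGD (adjusted p = 0.00029), each under the threshold of size. Between OGD + A-485 and control it was 0.02 (standard error 0.05, adjusted p = 0.797), with a sign that turned under several alternatives and a value of -0.19 under quantile normalization.

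Hspa1a (ENSMUSG00000091971, chromosome 17, 34969190 to 34972156) and Hspa1b (ENSMUSG00000090877, chromosome 17, 34956436 to 34959238) encode the near-identical HSP70 proteins that heat shock induces. Hspa1a had 0 reads in every control library, 1 read in OGD replicate 2 and 2 reads in OGD + A-485 replicate 2, with 0 in the others. Hspa1b had 0, 0 and 1 reads in control, 0 reads in every OGD library and 7, 5 and 5 reads in OGD + A-485. In FPKM, Hspa1b was at 0.171, 0.113 and 0.124 in the OGD + A-485 libraries, against 700.0 to 729 FPKM of Hspa8 in the same libraries. Hspa1b reads were present in all 3 libraries with A-485 and in control replicate 3 alone among the rest. Summed over the group and scaled to library totals, OGD + A-485 was 4.81-fold above a limit set for OGD. That limit is 3 reads over the OGD group, which a count of 0 allows. The counting error of the OGD + A-485 reads is left out, so the true fold may be lower. Against control, with 1 read, the ratio was 15.35 with a 95% interval from 2.406 to 641.7 (exact Clopper-Pearson, counting error only). With no filter on low values, Hspa1b had an adjusted p of 0.000382 against OGD and 0.000462 against control (limma over 27669 genes). Its fitted log2 fold changes were 1.23 and 1.13. These p-values and fold changes depend on the pseudocount of 0.1, because nearly all values outside OGD + A-485 were 0. Nearly all its reads lay in the group where it is high, so these p-values are no separate support for a difference.

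The reads of this pair cannot be told apart with certainty. Of all stretches of 100 bases in the Hspa1b transcripts, 49.9% were also found in transcripts of 4 other genes (Hspa1a, Gm20481, Hspa1l and Gm10501), and of those in Hspa1a 56.5%. Over the 9 libraries these 4 genes had 209 reads, against 18 on Hspa1b. All but 3 of the 209 were on Hspa1l and Gm10501, which had 9 to 21 and 5 to 15 reads per library. Hspa1l had 21, 10 and 14 reads in control, 13, 13 and 12 with OGD and 13, 10 and 9 with A-485 as well. Whether reads moved between Hspa1l and Hspa1b was not tested. How reads that match several genes were counted is not given in the sources used here, so the low counts of Hspa1a and Hspa1b may leave out shared reads. Exons of Gm20481 lie antisense over 564 bases (19.0%) of Hspa1a. For Hspa8 the share of such stretches was 28.5%, with Gm26825, Gm15459 and Gm8355 first among 9 other genes, and reads on the other genes came to 0.192% of those on Hspa8.

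Dnajb1 (ENSMUSG00000005483, chromosome 8, 83608193 to 83612653), which encodes an HSP40, the J-domain partner of cytosolic HSP70, went the other way with OGD without passing the threshold of size. Its control libraries had 13.2, 12.6 and 13.2 FPKM, those with OGD 15.8, 14.5 and 16.2, and those with A-485 as well 15.0, 14.0 and 14.8. Every control library was below every library with OGD, and the OGD groups overlapped. Fitted log2 fold changes of Dnajb1 were 0.25 under OGD (standard error 0.05, limma, adjusted p = 0.00456), -0.08 for OGD + A-485 against OGD (adjusted p = 0.249) and 0.17 for OGD + A-485 against control (adjusted p = 0.0234). The last was 0.05 with library totals. These values rest on 566 to 728 reads per library. Dnajb1 is the member with a promoter entry and no inverted pair of units in its window.

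The cytosolic HSP90 genes are Hsp90aa1, the more stress-inducible HSP90α, and Hsp90ab1, the constitutive HSP90β. Hsp90ab1 (ENSMUSG00000023944, chromosome 17, 45567775 to 45573271) had 1386, 1424 and 1367 FPKM in control. It had 1542, 1473 and 1596 FPKM in OGD and 1777, 1664 and 1799 FPKM in OGD + A-485. The groups stood apart in a row, with control lowest and OGD + A-485 highest. Under OGD the log2 fold change of Hsp90ab1 was 0.14 (standard error 0.06, limma, adjusted p = 0.104), and -0.07 under quantile normalization. It was 0.18 for OGD + A-485 against OGD (adjusted p = 0.0392) and 0.33 for OGD + A-485 against control (adjusted p = 0.00201), neither past the threshold of size. Under quantile normalization the former was 0.41, also not called.

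Hsp90aa1 (ENSMUSG00000021270, chromosome 12, 110690605 to 110702728) had 737, 714 and 748 FPKM in control. It had 635, 649 and 629.8 FPKM in OGD and 589.6, 619 and 637 FPKM in OGD + A-485. Control was above both other groups, which overlapped. For Hsp90aa1 the fit gave log2 fold changes of -0.20 under OGD (standard error 0.05, limma, adjusted p = 0.0087), -0.05 for OGD + A-485 against OGD (adjusted p = 0.394) and -0.25 for OGD + A-485 against control (adjusted p = 0.00172). The last was -0.57 under quantile normalization, past the threshold of size there, and the value against OGD was then -0.24. In Hsp90aa1 transcripts 38.0% of stretches of 100 bases were shared with other genes (Gm12346, Gm5844 and Gm5511), whose reads came to 1.35% of its own.

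The HSP90 genes were also set against each other within each library. The ratio of Hsp90aa1 to Hsp90ab1 was 0.532, 0.501 and 0.547 in the control libraries. Under OGD it was 0.412, 0.441 and 0.395, and with A-485 as well 0.332, 0.372 and 0.354. No libraries of different groups overlapped, and the ratio was highest in control and lowest in OGD + A-485. The log2 differences were -0.34 for OGD against control, -0.24 for OGD + A-485 against OGD and -0.58 for OGD + A-485 against control. Each had p = 0.1 in an exact permutation test (two-sided, the smallest that 3 against 3 libraries can give) and 0.15 after adjustment over 6 ratio tests. Of the FPKM summed over the 10 members, Hsp90ab1 took 38.4 ± 0.963% in control (SD, n = 3), which compares with 47.2 ± 1.04% under OGD and 47.7 ± 0.986% when A-485 was added.

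**Figure D2:**
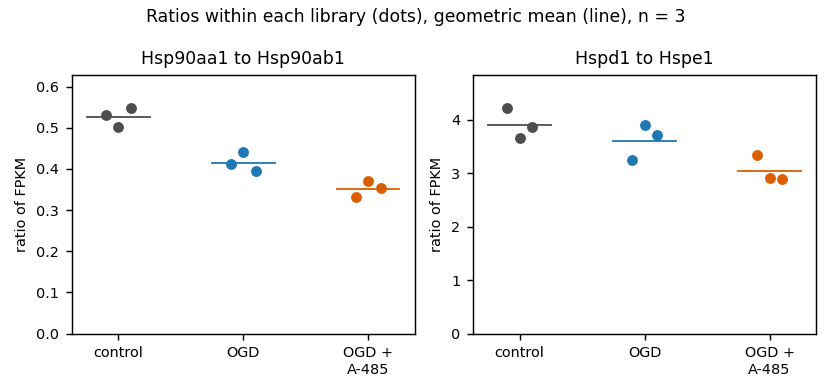
Ratio of FPKM of Hsp90aa1 to Hsp90ab1 (left) and of Hspd1 to Hspe1 (right) in each library (dots), with the geometric mean of the group (line, n = 3). The HSP90 ratio averaged 0.526 in control, 0.415 under OGD and 0.352 when A-485 was added, with no overlap, whereas control and OGD overlapped for the chaperonin pair.

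Hspb1 (ENSMUSG00000004951, chromosome 5, 135887919 to 135889563), which encodes the small heat shock protein HSP25 that holds unfolded proteins without using ATP, was near the limit of the depth. Its reads were 5, 4 and 0 in control, 5, 1 and 2 under OGD and 0, 7 and 0 when A-485 was added, that is 0 to 0.430 FPKM. The groups overlapped and had 9, 8 and 7 reads in all, so no difference was detectable at this depth. In Hspb1 transcripts 44.0% of stretches of 100 bases were shared with other genes (Hsp25-ps1 and Gm9817). Its low counts may thus leave out shared reads.

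With A-485 (OGD + A-485 against OGD, here and in the lists), none of the 7 members tested was called against OGD (limma, 0 past p under 0.01 and the threshold of size), where 25.7% of all genes tested were called, 12.2% higher and 13.4% lower. Voom on the recovered reads also called 0 members. At an unadjusted p under 0.05, 4 members passed (Hsp90ab1, Hspa8, Hspd1 and Hspe1), all with higher values, as did 55.5% of all genes (28.1% with higher values). At an adjusted p under 0.05 the same 4 were higher and none lower, against 25.1% and 24.7% of all genes (49.8% in either direction). With scaling by library totals, Hsp90ab1 was at 0.12 and Hspd1 at 0.08, neither past an unadjusted p of 0.05, while Hspa8 at 0.27 and Hspe1 at 0.33 were. The 4 members had no overlap between the groups, as had 56.8% of all genes (28.5% higher and 28.3% lower). The median log2 fold change was 0.15, beside 0.01 over all genes. The comparison shares its OGD libraries with the comparison against control, so the values of a gene in the 2 comparisons are not independent. Given side by side, the values with OGD and then with A-485 were -0.92 and 0.08 for Hsph1, -0.67 and 0.15 for Hspd1, -0.55 and 0.39 for Hspe1, and -0.32 and 0.33 for Hspa8. The other members tested had 0.25 and -0.08 (Dnajb1), -0.20 and -0.05 (Hsp90aa1) and 0.14 and 0.18 (Hsp90ab1). Hsp90aa1 and Hsp90ab1 thus had the same sign in both comparisons.

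OGD + A-485 was also set against control, a comparison that shares libraries with both others. There 2 of the 7 members were called, Hsph1 and Hspd1, both lower, beside 33.7% of all genes (16.6% lower and 17.0% higher; with scaling by library totals, 2253 genes were called higher and 3350 lower). With the median of neighbouring genes removed Hspd1 was at -0.39 and was not called, so that 1 member was. The median log2 fold change of the members was -0.16, against 0.02 over all genes. At an adjusted p under 0.05, 3 members were lower and 2 higher, where 56.6% of all genes passed (28.4% and 28.2%), and the same 5 had no overlap between the groups, beside 63.8% of all genes (32.0% lower and 31.8% higher).

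**Figure D3:**
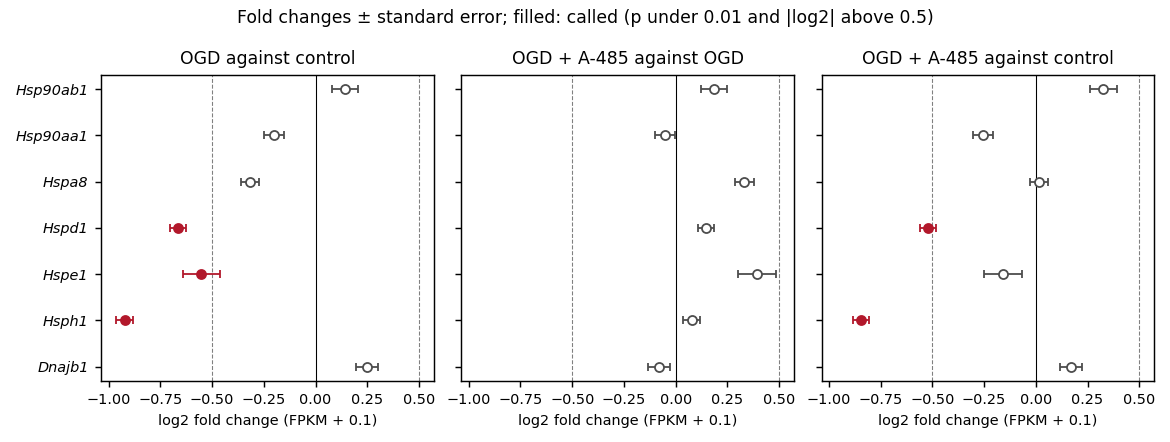
log2 fold change of FPKM + 0.1 with its standard error (bars) for the 7 members tested, in the 3 comparisons, with called genes filled and dashed lines at the threshold of size. Hsph1, Hspd1 and Hspe1 were called lower with OGD, none was called between OGD + A-485 and OGD, and Hsph1 and Hspd1 were called lower than control in OGD + A-485.

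The other genes of the network of protein folding were read from 9 lists with 102 genes in all, of which 93 were tested. With OGD 21 were called lower and 6 higher, with a median log2 fold change of -0.18. Between OGD + A-485 and OGD 13 were called higher and 7 lower (median 0.07), and between OGD + A-485 and control 11 higher and 18 lower (median -0.17). With scaling by library totals the splits were 9 higher and 10 lower against OGD, and 10 higher and 30 lower against control. With quantile normalization the latter was 10 higher and 28 lower, and with the median of neighbouring genes removed the splits were 11 and 11, and 7 and 21. The percentages of all genes called in each direction, given above, are the background of all these counts.

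Of the 4 genes tested for heat shock factors and their regulators, Hsf1 was the one called with OGD, beside 21.0% of all genes. Hsf1, the factor that drives the heat shock response, stood at 9.78 ± 0.278 FPKM in control (SD, n = 3), 6.36 ± 0.810 under OGD and 6.99 ± 0.318 when A-485 was added. OGD lowered it by a log2 fold change of -0.62 (limma, adjusted p = 0.000493), and the value was 0.14 for OGD + A-485 against OGD (adjusted p = 0.224). It was not called with OGD once the median of its neighbours was removed. Against control, OGD + A-485 had lower Hsf2 (-0.51), another factor of the family, and higher Hsbp1 (0.55), which encodes a protein that binds HSF1, while Hsf1 itself was at -0.48 and not called. The call of Hsbp1 was lost under quantile normalization, with scaling by library totals and with the median of neighbouring genes removed. That of Hsf2 was lost with a pseudocount of 1 and without control replicate 3 or OGD + A-485 replicate 1.

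The partners of HSP70 were mixed. Of all genes, 9.81% were lower and 11.2% higher with OGD, and 13.4% lower and 12.2% higher with A-485. In both comparisons 2 of 12 other cytosolic J-domain genes were called lower and 1 higher, near those shares. OGD lowered Dnajc9 (-1.03), a histone chaperone, and Dnaja1 (-0.59), a main partner of HSC70, and raised Dnajb4 (0.75). A-485 raised Dnajb14 (0.93), which encodes a J-domain protein of the ER membrane that faces the cytosol, and lowered Dnajb2 (-0.78), which sends clients to the proteasome, and Dnajc21 (-0.76), which acts in ribosome assembly. Of 6 nucleotide exchange factors, OGD lowered Hspbp1 (-0.92) and none was called higher. Bag5 rose with A-485 (0.56), a call that was lost with scaling by library totals. Bag3, an HSF1 target in many cells, was at -0.15 with OGD and 0.18 with A-485, not called in either. Of 6 other cytosolic HSP70 and HSP110 genes, Hspa14, a ribosome-bound HSP70, fell with OGD (-0.56), a call that was lost without OGD replicate 2. Hspa2 was called higher (0.59) but lost its call under 8 of 22 alternatives.

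The genes of HSP90 cochaperones, which load clients on HSP90 or set the pace of its cycle, fell with OGD in 6 of 18 cases. None was called higher. Of all genes, 9.81% were lower and 11.2% higher. The list's median was -0.38, beside 0.01 over all genes. The largest fall among the called genes was in Cacybp (-1.10, limma, adjusted p = 3.06e-06), which encodes a protein that binds ubiquitin ligases. Next were Fkbp4 (-0.96, adjusted p = 2.26e-05), an immunophilin of steroid receptor complexes, and Ahsa1 (-0.89, adjusted p = 3.63e-06), the activator of the HSP90 ATPase. Between OGD + A-485 and OGD 1 gene of this list was called, Sugt1 (0.53), and that call was lost with scaling by library totals, among other alternatives. Against control, 5 were lower in OGD + A-485 and 1 higher, beside 16.6% and 17.0% of all genes. With quantile normalization or library totals 8 were lower and 1 higher.

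Of the 14 genes of the cytosolic chaperonin CCT and of prefoldin, which fold actin and tubulin, only Pfdn2 was called with OGD (-0.53). With A-485 compared with OGD 2 were higher, Pfdn2 (0.59) and Pfdn6 (0.55), and none lower, beside 12.2% and 13.4% of all genes. In OGD + A-485 against control Pfdn5 was higher (0.68) and Vbp1 lower (-0.52). The call of Pfdn2 with OGD was lost without OGD replicate 2 or replicate 3, and its call with A-485 with the median of neighbouring genes removed. Of 22 alternatives, Pfdn6 kept its call in 17, Vbp1 in 18 and Pfdn5 in 21. Of 14 other mitochondrial chaperones and proteases, A-485 lowered 4 and raised none, beside 13.4% of all genes lower and 12.2% higher. OGD raised Hscb (1.0), a J-domain protein of iron-sulfur cluster assembly, and Lonp1 (0.50), the matrix protease, and lowered Htra2 (-0.64), a protease of the intermembrane space. Among the genes lower with A-485 were Clpx (-1.08, adjusted p = 4.45e-07), the unfoldase of the ClpXP protease, and Lonp1 (-0.98, adjusted p = 3.24e-06). The others, Spg7 (-0.51) and Clpp (-0.51), were close to the threshold of size and each kept its call in 18 of 22 alternatives. With the median of neighbouring genes removed 3 genes of this list were lower with A-485. The rise of Lonp1 with OGD was not called with quantile normalization, library totals or the median of neighbouring genes removed. Nor was it called without control replicate 3 or OGD replicate 3. Hspa9, the mitochondrial HSP70 that passes clients to the chaperonin of Hspd1 and Hspe1, was at -0.29 with OGD and 0.13 with A-485, and Trap1, the mitochondrial HSP90, at -0.02 in both. Neither was called.

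**Figure D4:**
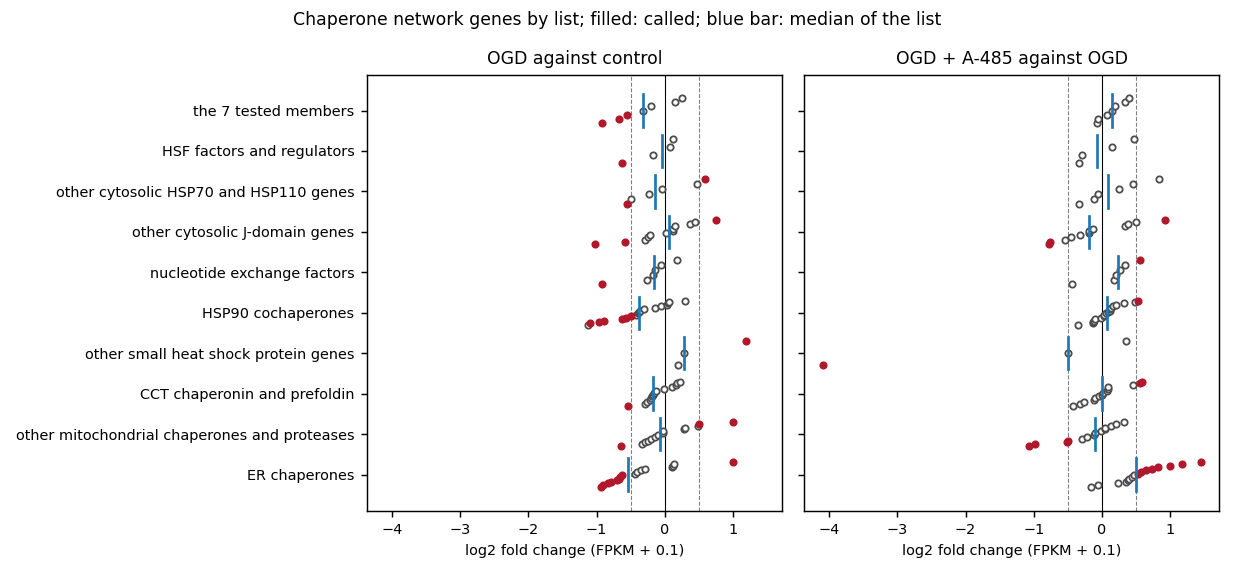
log2 fold change of FPKM + 0.1 for each tested gene of the members (top row) and of the 9 lists (dots, called genes filled) with OGD and with A-485, with the median of each list (bar) and the threshold of size (dashed lines). The endoplasmic reticulum chaperones had medians of -0.54 with OGD and 0.50 with A-485, and the HSP90 cochaperones medians of -0.38 and 0.08.

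The chaperones of the endoplasmic reticulum (ER) had the most calls of these lists with OGD and with A-485. With OGD 8 of 16 were lower and 1 higher (median -0.54), where 9.81% of all genes were lower and 11.2% higher. With A-485 compared with OGD 8 were higher and none lower (median 0.50), beside 12.2% and 13.4% of all genes. Hspa5, the HSP70 of the ER, known as BiP, stood at 172 ± 5.55 FPKM in control (SD, n = 3), 127 ± 4.61 under OGD and 223 ± 3.28 when A-485 was added. It was at -0.44 on the log2 scale with OGD, short of the threshold of size, and rose by 0.82 with A-485 (limma, adjusted p = 8.49e-07). Hsp90b1, the HSP90 of the ER, was at -0.65 (called) and 0.44 (not called). Calr, a chaperone of glycoproteins, was at -0.68 and 1.0, and Dnajc3, a J-domain partner of BiP, at -0.70 and 1.45, each called in both comparisons. Dnajb9, another J-domain partner of BiP, was at 0.11 with OGD (not called) and rose by 1.17 with A-485. Creld2 and Hyou1 fell with OGD, by 0.93 and 0.91 on the log2 scale. P4hb, the disulfide isomerase that is also a subunit of prolyl hydroxylase, rose in both (1.0 and 0.73). Against control, 3 of 16 were higher in OGD + A-485 and none lower, where 17.0% of all genes were higher and 16.6% lower. The count of higher genes was thus near the share over all genes. With scaling by library totals 3 were higher and 3 lower. Both comparisons that involve OGD alone share its libraries, as for the members.

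Of 8 other small heat shock protein genes 3 were tested, and 1 of them had the widest change of any gene of the lists. Hspb7 (ENSMUSG00000006221, chromosome 4, 141420779 to 141425311), a small heat shock protein gene known from heart and muscle, had 27.3, 30.4 and 27.7 FPKM in control. It had 63.8, 62.7 and 69.8 FPKM in OGD and 3.83, 3.57 and 3.83 FPKM in OGD + A-485. The 3 groups were far apart, with OGD highest and OGD + A-485 lowest. Hspb7 rose under OGD by 1.20 on the log2 scale (standard error 0.06, limma, adjusted p = 1.71e-06), and the log2 fold change was -4.09 for OGD + A-485 against OGD (standard error 0.06, adjusted p = 1.8e-09) and -2.89 against control (adjusted p = 7.28e-09). The calls held in all 22 alternatives. Hspb1, the member of the same family, had 0 to 0.430 FPKM in the same libraries.

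Some genes outside the lists followed a member closely over the 9 libraries. By Pearson's r of log2(FPKM + 0.1) among 5269 genes whose mean reached 10 FPKM, the nearest to Hspd1 were Erh (r = 0.996), Eif4g2 (0.995, a translation factor) and Ivns1abp (0.994). The nearest to Hsp90aa1 were Bzw2 (0.989), Strap (0.988) and Pnpt1 (0.987, the mitochondrial polynucleotide phosphorylase). The libraries fall into 3 groups, so these values mostly compare group means. As an example, Erh averaged 126 FPKM in control, 83.1 under OGD and 90.9 when A-485 was added, and Bzw2 had 47.5, 34.2 and 33.1. For the sum of Hspa1a and Hspa1b the nearest were Cbl (0.990), Capn7 (0.989) and Gm6377 (0.987), a likeness that rests on 3 reads of Hspa1a and 18 of Hspa1b over all libraries.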

How the data were processed

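RNA of 9 BV2 libraries was sequenced, with 3 libraries per group as the labels give them. The authors removed low-quality reads, counted reads per gene with featureCounts and divided by gene length and a library divisor, and deposited FPKM values. FPKM of 1 read per kilobase times the reads on genes was not constant (on a scale where 1 is the reads on genes, control had 0.949 to 0.963, OGD had 0.986 to 0.995, and OGD + A-485 had 1.02 to 1.05), and median-of-ratios factors computed from the deposited values were 0.994 in every library. The build was GRCm38 (mm10), and the aligner, the annotation release and the strand setting are not given in the sources used here. Each FPKM value, multiplied by the gene length and the library's value of 1 read, was a whole number within 0.01 for 100% of values, which gave the reads per gene. All 10 members had the coordinates of GENCODE M21, as did 98.3% of the 54409 genes matched to it.

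Genes whose mean reached 0.2 FPKM were tested with limma 3.58.1 (R 4.3.3) on log2(FPKM + 0.1), with a trended prior variance and all 9 libraries in 1 fit. A fold change on this scale understates the change of low genes. The thresholds of the study were kept (p under 0.01, absolute log2 fold change above 0.5), and p-values adjusted by Benjamini-Hochberg over all 16123 genes are given beside them. Simulated reads were drawn from gene means over all 9 libraries, with changes put into the OGD libraries (16178 genes). There 81.4% of 97 genes with a log2 change of 1 and 89.6% of 96 with a change of 2 were called. So were 0.482% of 15985 unchanged genes. The simulated spread was a fixed value shared by all genes and not estimated from these libraries. These rates therefore need not hold for the measured genes. Ratios of members were compared by exact permutation tests. The ratio of Hspa1a and Hspa1b to Hspa8 was not tested, because their sum was 0 in 4 libraries. Depth limits the members at 0 to 7 reads. The interval for Hspa1b against control covers counting error only, and the limit against OGD covers only the counting error of the OGD group.

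The members and lists were chosen with earlier results of these data known. Named from each list were at most the 3 called genes of the largest change with a mean of at least 1 FPKM, together with Hsf1, Hspa5, Hspa9, Hsp90b1 and Trap1, and for likeness the 3 genes of highest r. Bag3 is outside this rule and was named after its values were seen. Alternatives changed the pseudocount, filter, normalization, prior, samples, call rule and replicate block, and one removed the median of 50 neighbouring genes. Replicate numbers showed no pairing of the libraries over all genes tested (mean correlation of deviations -0.0023 for the same number and 0.0012 for different numbers). Python 3.11.15 with pandas 2.3.3 was used for tables.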

Additional observations from a re-analysis of the deposited data

How the results depend on the processing

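Under the alternatives 440 fold changes of members kept their direction and their side of the threshold, 3 no longer passed it and 8 turned their sign. Another 11 were called, all by the rule without a threshold of size except Hsp90aa1 in OGD + A-485 against control under quantile normalization (-0.57). The sign turned for Hsp90ab1 with OGD (-0.0729) and Hspd1 with A-485 against OGD (-0.11) under quantile normalization, and for Hsph1 with A-485 against OGD when the median of 50 neighbouring genes was removed (-0.11). For Hspa8 in OGD + A-485 against control it turned under quantile normalization (-0.19), library totals (-0.10), neighbours removed (-0.0079), without control replicate 2 (-0.0053) and without OGD + A-485 replicate 1 (-0.0009). An adjusted p under 0.05 with no threshold of size gave 6, 4 and 5 members with OGD, with A-485 against OGD and with A-485 against control, and 7300, 8036 and 9130 genes in all, by construction of the looser rule. With no filter on low values 1 member, Hspa1b, was called with A-485 against OGD, a call that depends on the pseudocount. With neighbours removed 1 member was called with A-485 against control. The cause of these shifts was not tested. For Hspa8 in that comparison, leaving out each library in turn gave -0.0053 to 0.0282. Leaving out each library in turn gave 2 to 3 members with OGD, 0 with A-485 against OGD and 2 with A-485 against control. With the replicate number as a block, 3, 0 and 2 members were called and 3288, 4046 and 5317 genes in all, against 3384, 4139 and 5431 without it, and no call of a member changed. Same-numbered libraries had correlations of their deviations from -0.0463 to 0.0386, so no pairing by number was seen over all genes tested. A weak pairing, or one of some genes only, could be missed. Median-of-ratios scaling differed by nearly the same factor in every library and could not move a member. Depth limits Hspa1a, Hspa1b and Hspb1, for which a few reads decide each value.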
